A study of Homo sapiens with 6 samples.

Results

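The genes described here are 10 members of the Wnt and beta-catenin pathway in MDA-MB-231 cells, namely the ligands WNT5A and WNT5B, the receptor FZD2, the co-receptor LRP6, the secreted antagonist DKK1, the scaffolds AXIN1 and AXIN2, beta-catenin itself (CTNNB1) and the DNA-binding partners LEF1 and TCF7L2. They were taken by symbol from the gene table, each symbol matched 1 row, and they make up 10 of 74852 genes listed. All 10 were tested, since each averaged 10 normalized counts or more. MDA-MB-231 is an established human cell line of triple-negative breast cancer (TNBC) with mesenchymal features. It was transfected 2 times with non-targeting control siRNA (si-CTRL) or with siRNAs against the mitotic kinase NEK2 (si-NEK2). By the sample records, it was harvested 24 h after the second transfection. The methods give a longer time after transfection and name no second one, so that these times may be counted from different starts. No group was left untransfected among the samples analysed here, every library comes from the same cell line, and each treatment is a pool of siRNAs. PolyA-enriched RNA was sequenced in 3 libraries per group, and the methods give cells harvested in triplicate and do not say whether these were separate cultures, so that p-values measure the spread between these libraries.

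In the absence of a Wnt signal, beta-catenin is held by a destruction complex built on the AXIN scaffolds, phosphorylated there and degraded. Binding of a Wnt ligand to a Frizzled receptor and to LRP5 or LRP6 inactivates this complex, and the stabilised beta-catenin enters the nucleus and activates genes bound by TCF/LEF factors, AXIN2 and LEF1 among them. WNT5A and WNT5B are best known for signalling that does not pass through beta-catenin, such as the planar cell polarity branch, which steers cell shape and movement. DKK1 binds LRP5 and LRP6 and blocks the beta-catenin branch.

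Promoter sequences are shown for DKK1, the only member whose window held the core of the TCF/LEF motif, and for CTNNB1, the member with the largest increase. RefSeq windows (GRCh38.p14) of 300 bases around an annotated start, of which the last 50 lie downstream of it, were at hand for 7 of the members (all but AXIN2, FZD2 and LRP6), in 11 windows. Capitals mark CTTTGA or its reverse complement TCAAAG (the TCF/LEF core), TATAAA (the TATA box, searched on both strands) and GGGCGG or CCGCCC (the GC box), and none of these matches overlap. The DKK1 window is chr10:52314031-52314330 on the plus strand, and the CTNNB1 window is chr3:41199255-41199554 on the plus strand.
DKK1: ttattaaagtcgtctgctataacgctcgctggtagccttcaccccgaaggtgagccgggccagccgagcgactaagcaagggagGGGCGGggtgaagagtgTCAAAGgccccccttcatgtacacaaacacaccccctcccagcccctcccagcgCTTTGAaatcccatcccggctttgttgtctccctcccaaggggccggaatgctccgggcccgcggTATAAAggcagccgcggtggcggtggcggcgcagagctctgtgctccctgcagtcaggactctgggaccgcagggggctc
CTNNB1: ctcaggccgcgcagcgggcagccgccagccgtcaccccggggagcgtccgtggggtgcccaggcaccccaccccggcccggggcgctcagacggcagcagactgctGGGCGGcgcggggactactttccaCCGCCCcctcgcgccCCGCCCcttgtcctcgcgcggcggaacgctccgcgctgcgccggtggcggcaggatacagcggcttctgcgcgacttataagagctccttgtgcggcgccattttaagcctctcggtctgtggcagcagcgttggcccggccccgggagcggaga
The DKK1 window held 2 matches to the TCF/LEF core, with their first bases at -149 (minus strand) and -95 (plus strand) from the start, besides 1 TATA box and 1 GC box. The CTNNB1 window held 3 GC boxes, no TATA box and no TCF/LEF core, with 39 CpG sites and 74.0% GC. Of all 35116 windows in the RefSeq table, 12.9% held the TCF/LEF core, 11.5% the TATA box and 45.0% the GC box. A match of these letters is a description of the window and not a binding site.

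NEK2 was examined first, since it checks the labels. It had 3702, 3323 and 3290 normalized counts in si-CTRL replicates 1 to 3 and 284, 362 and 388 in si-NEK2 replicates 1 to 3. The log2 fold change was -3.32 (SE 0.12, adjusted p = 1.86e-06, limma), and 10.0% of the control level remained. In bulk RNA, fewer cells with a transcript and less of it per cell cannot be told apart, here and for the genes below. A normalized count is the number of reads on a gene divided by the size factor of its library. Between 52625492 and 87454509 reads per library could be recovered from these values, with 1 read worth 0.818 to 1.25 normalized counts. The groups lay apart on the first principal component (61.7% of the variance), and si-CTRL replicate 1 lay apart from every other library on the second (16.2%). The mesenchymal markers VIM, CD44, AXL, CAV1, PLAU and LIF were all present, with summed normalized counts of 343296 to 408249 in si-CTRL and 321770 to 337183 in si-NEK2. They did not move together, since CAV1 went from a mean of 60584 to 97562, whereas CD44 went from 54108 to 31464, PLAU from 30487 to 12025 and LIF from 15014 to 5006. Of 8 luminal markers 4 reached a mean of 10 normalized counts (KRT8, KRT18, FOXA1 and GATA3), and the list summed to 41856 to 45527 in si-CTRL and 47457 to 51123 in si-NEK2. KRT8 went from 17463 to 22587 and FOXA1 from 826 to 1851, whereas GATA3 went from 427 to 321 and KRT18 from 24840 to 24560. CDH1, EPCAM, ESR1 and PGR lay below 10 in the mean of both groups. The part of these shifts in the results was not tested.

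Silencing of NEK2 went with opposite changes among the 10 members. CTNNB1 and LRP6 rose, whereas WNT5B, AXIN2 and LEF1 fell, and WNT5A, FZD2, DKK1, AXIN1 and TCF7L2 did not pass the test. Here "rose" and "fell" stand for an adjusted p of at most 0.05 in limma over all 18717 genes tested, and "regulated" for the thresholds of the study, an unadjusted p of at most 0.05 with a change of 1.5-fold or more. By the adjusted p 2 members were higher and 3 were lower, beside 21.8% and 21.3% of all genes tested. By the thresholds of the study CTNNB1 was regulated upwards and WNT5B and LEF1 downwards, that is 1 and 2 of 10, beside 8.23% and 14.3% of all genes tested. The 2 groups did not overlap for 5 of 10 members, beside 55.0% of all genes tested. These shares lie near the background, and the median log2 fold change was -0.082 over the members and 0.012 over all genes tested. With the libraries scaled to equal totals the median over all genes moved to -0.12, and upward changes made up 21.3% of regulated genes instead of 36.6%. With quantile normalization the median was 0.046 and the share 45.9%.

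**Figure D1:**
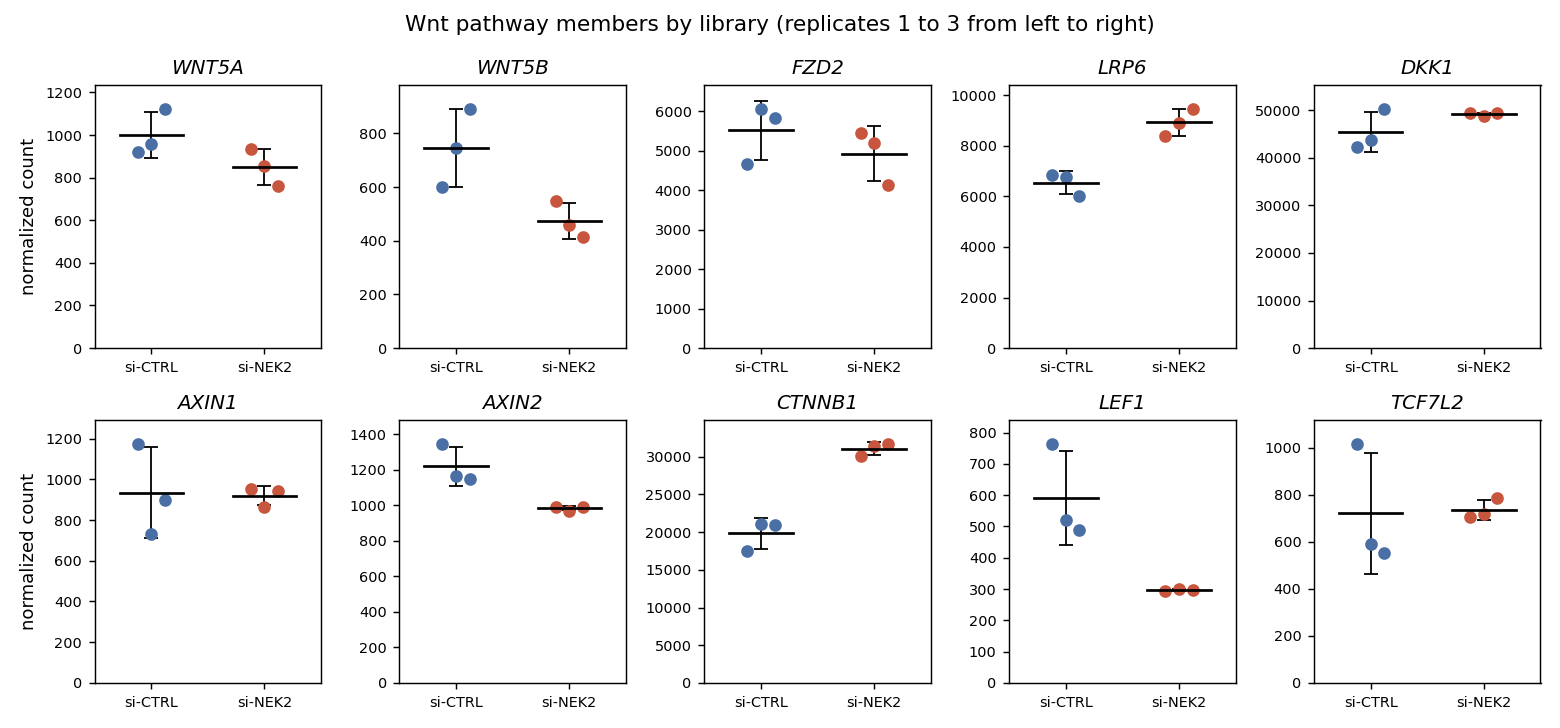
Normalized counts (vertical axes, each from 0) of the 10 members in the 3 si-CTRL (blue) and 3 si-NEK2 (red) libraries, with the mean (bar) and SD (whiskers). The groups do not overlap for WNT5B, LRP6, AXIN2, CTNNB1 and LEF1, and si-CTRL replicate 1 is the highest control for AXIN1, LEF1 and TCF7L2.

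Among the ligands, WNT5B (GSHG0006371, chromosome 12 from 1683821 to 1756379, hg19) fell. It had 601, 747 and 892 normalized counts in si-CTRL and 547, 459 and 413 in si-NEK2. Every si-NEK2 library was below every si-CTRL library, by a narrow margin between si-CTRL replicate 1 and si-NEK2 replicate 1. The mean went from 747 ± 145 to 473 ± 67.9 (SD, n = 3 each), with a log2 fold change of -0.65 (SE 0.16, 95% interval -1.01 to -0.29, adjusted p = 0.0102, limma). The fold change stayed below 1.5 with quantile normalization and without si-CTRL replicate 3 or si-NEK2 replicate 3, with log2 fold changes of -0.55, -0.51 and -0.56. The WNT5B row overlaps that of FBXL14, an F-box protein gene, which averaged 553 normalized counts in si-CTRL and 511 in si-NEK2 (log2 fold change -0.13, adjusted p = 0.459, limma). The handling of strand in counting is not given in the sources used here, so that reads in the overlap cannot be assigned to either gene with certainty.

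WNT5A (GSHG0021787, chromosome 3 from 55499744 to 55521670) had 920, 959 and 1123 normalized counts in si-CTRL and 933, 857 and 761 in si-NEK2. The groups overlap, since si-NEK2 replicate 1 exceeds si-CTRL replicate 1. The log2 fold change was -0.23 (SE 0.11, 95% interval -0.48 to 0.016, adjusted p = 0.118, limma), and it passed the test without si-CTRL replicate 1 (-0.29, adjusted p = 0.0407), with equal totals (-0.36, adjusted p = 0.0258) and with a correction for GC content (-0.31, adjusted p = 0.0438). The ratio of WNT5B to WNT5A, which does not depend on the scaling of a library, was 0.654, 0.779 and 0.794 in si-CTRL and 0.586, 0.536 and 0.543 in si-NEK2. Its mean went from 0.742 ± 0.077 to 0.555 ± 0.027 (SD, n = 3 each) without overlap, a log2 difference of -0.41 (exact two-sided permutation p = 0.1, the smallest that 3 against 3 libraries allow).

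Of the other 17 Wnt ligands listed, 7 reached the mean of 10 normalized counts, and 4 were listed at 0 in all 6 libraries. WNT2B rose from a mean of 128 to 326 normalized counts (log2 fold change 1.38, SE 0.20, adjusted p = 0.000717, limma). WNT3 (596 to 302), WNT10B (152 to 75.1) and WNT3A (71.2 to 47.0) fell, with log2 fold changes of -0.98, -1.02 and -0.60. The call of WNT3A was lost in 9 of 19 alternatives, among them quantile normalization, the replicate block and 4 left-out libraries (adjusted p up to 0.129, limma). WNT7B fell from 6439 to 4946 (log2 fold change -0.38, adjusted p = 0.00186, limma). In all, 1 of 9 tested ligands was regulated upwards (11.1%, beside 8.23% of all genes tested) and 4 downwards (44.4%, beside 14.3%), and the median was -0.51. With quantile normalization 2 were regulated downwards. Of the pair of genes needed for ligand secretion, PORCN, the acyltransferase that attaches the lipid of Wnt proteins, rose from 152 to 313 (log2 fold change 1.05), and WLS, their carrier to the cell surface, fell from 4453 to 3503 (log2 fold change -0.34).

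The co-receptor LRP6 (GSHG0007281, chromosome 12 from 12268959 to 12419811) rose. It had 6833, 6760 and 6006 normalized counts in si-CTRL and 8399, 8905 and 9456 in si-NEK2, so that every si-NEK2 library was above every si-CTRL library. The mean went from 6533 ± 458 to 8920 ± 529 (SD, n = 3 each), with a log2 fold change of 0.45 (SE 0.08, 95% interval 0.28 to 0.62, adjusted p = 0.00169, limma). The 1.37-fold change lay below the threshold of 1.5. LRP5, the related co-receptor, rose from 5603 to 7137 (log2 fold change 0.35, adjusted p = 0.00589, limma).

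FZD2 (GSHG0012550, chromosome 17 from 42634812 to 42638629), a Frizzled receptor, had 4673, 6061 and 5831 normalized counts in si-CTRL and 5454, 5193 and 4130 in si-NEK2. The lowest value was that of si-NEK2 replicate 3, and the groups overlap. The log2 fold change was -0.17 (SE 0.13, 95% interval -0.46 to 0.13, adjusted p = 0.332, limma), and over the left-out libraries it ranged from -0.28 without si-CTRL replicate 1 (adjusted p = 0.0433) to -0.044 without si-NEK2 replicate 3. With equal totals it was -0.29. The FZD2 transcripts have 64.9% GC, the highest share among the members. Across 13201 genes, the deviation of a library from its group mean had a correlation with GC content of 0.29 in si-NEK2 replicate 1 and -0.22 in si-NEK2 replicate 3. With the correction for GC content the log2 fold change of FZD2 was -0.075.

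Other receptors changed in either direction. FZD7 rose from 3223 to 5826 normalized counts (log2 fold change 0.86, SE 0.11, adjusted p = 0.000423, limma). FZD1 fell from 2773 to 1326 (log2 fold change -1.06) and PTK7, a pseudokinase co-receptor of the planar cell polarity branch, from 16017 to 6874 (log2 fold change -1.22). A row shared by FZD8 and the microRNA gene MIR4683 fell from 7361 to 4642 (log2 fold change -0.65). Of 15 receptors and co-receptors tested, members included, 1 was regulated upwards (6.67%) and 3 downwards (20.0%), and 4 rose (26.7%) and 3 fell (20.0%) by the adjusted p, shares near those of all genes tested. The number downwards was 2 without si-CTRL replicate 3. The median was 0.037. ROR1, ROR2 and RYK, receptors of WNT5A, had log2 fold changes of 0.15, 0.065 and 0.037 and did not pass the test.

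DKK1 (GSHG0003375, chromosome 10 from 54074012 to 54077416) had 42188, 43799 and 50284 normalized counts in si-CTRL and 49312, 48864 and 49361 in si-NEK2. The si-NEK2 libraries lay close together inside the range of the controls. The log2 fold change was 0.12 (SE 0.08, 95% interval -0.053 to 0.29, adjusted p = 0.240, limma), and its direction turned with equal totals (-0.0095) and with quantile normalization (-0.086). SFRP1, a secreted decoy of Wnt ligands, rose from 195355 to 295881 (log2 fold change 0.60, SE 0.07, adjusted p = 0.000232, limma). It passed the test in each of 19 alternatives, but its log2 fold change was 0.53 with upper quartile scaling, 0.47 with equal totals and 0.23 with quantile normalization, below a fold change of 1.5. KREMEN1, a cell surface partner of DKK1, fell from 386 to 239 (log2 fold change -0.66), a call that was lost in 5 of 19 alternatives, namely quantile normalization, eBayes without a trend and without si-CTRL replicate 2, si-NEK2 replicate 1 or si-NEK2 replicate 2 (adjusted p up to 0.0859, limma). Of 7 antagonists tested, 1 was regulated upwards (14.3%, beside 8.23% of all genes tested) and 1 downwards (14.3%, beside 14.3%). The number upwards was 0 with the 3 other scalings and without si-CTRL replicate 1 or 2, and 2 without si-NEK2 replicate 3. The number downwards was 0 with quantile normalization and without si-CTRL replicate 1 or si-NEK2 replicate 2. Of the 4 tested genes of R-spondin signalling and receptor turnover (LGR4, LGR6, RNF43 and ZNRF3, with log2 fold changes from -0.53 to 0.31), 0 passed the adjusted p in limma, in edgeR and in DESeq2, and 1, 0 and 1 had an unadjusted p of at most 0.05. With equal totals, and without si-NEK2 replicate 1, 1 of the 4 passed. Over all genes tested 21.8% were higher and 21.3% lower by the adjusted p in limma, and 4 genes are too few to set against these shares.

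**Figure D2:**
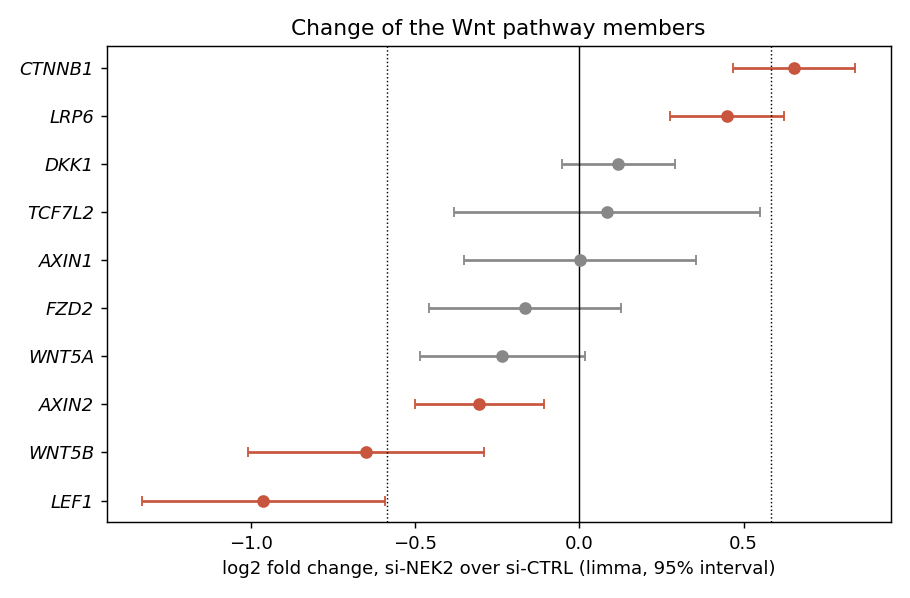
Log2 fold change of each member in si-NEK2 over si-CTRL from limma (horizontal axis) with its 95% interval. Red points passed an adjusted p of 0.05, grey points did not, and dotted lines mark a fold change of 1.5. CTNNB1 has the highest value (0.65) and LEF1 the lowest (-0.96).

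In the destruction complex, AXIN1 (GSHG0011489, chromosome 16 from 337440 to 411502) had 1176, 730 and 899 normalized counts in si-CTRL and 952, 867 and 942 in si-NEK2. All si-NEK2 libraries lay within the range of the controls, of which replicate 1 was the highest. AXIN1 had a log2 fold change of 0.0029 (SE 0.16, 95% interval -0.35 to 0.36, adjusted p = 0.990, limma), and its sign turned in 8 of 19 alternatives, equal totals (-0.13) and upper quartile scaling (-0.063) among them.

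AXIN2 (GSHG0013671, chromosome 17 from 63524685 to 64188249), a feedback inhibitor that is itself switched on by beta-catenin, fell. It had 1347, 1162 and 1149 normalized counts in si-CTRL and 992, 971 and 992 in si-NEK2, all si-NEK2 libraries below all controls. The mean went from 1220 ± 111 to 985 ± 12.4 (SD, n = 3 each), with a log2 fold change of -0.30 (SE 0.09, 95% interval -0.50 to -0.11, adjusted p = 0.0200, limma). The fold change was below 1.5, and the call was lost without si-NEK2 replicate 1, 2 or 3 in turn (adjusted p = 0.0585, 0.0780 and 0.0538). The row spans 664 kb, whereas AXIN2 spans 33.1 kb in the GENCODE annotation (GRCh38), and AXIN2 together with the neighbouring gene CEP112 spans 663.5 kb. CEP112 is not named in any row of the file, so that the value of AXIN2 may hold reads of CEP112 and is uncertain. The ratio of AXIN2 to AXIN1 was 1.15, 1.59 and 1.28 in si-CTRL and 1.04, 1.12 and 1.05 in si-NEK2, without overlap (log2 difference -0.31, exact two-sided permutation p = 0.1), and it carries the same uncertainty.

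Of the 12 genes of the destruction complex tested, 0 were regulated by the thresholds of the study in limma, edgeR and DESeq2, although 7 had an unadjusted p of at most 0.05 upwards and 1 downwards in limma. Over all genes tested, 8.23% were regulated upwards and 14.3% downwards. With quantile normalization, and without si-NEK2 replicate 3, 1 of the 12 was regulated upwards. By the adjusted p 5 rose (41.7%, beside 21.8% of all genes tested). These were APC (log2 fold change 0.23), the kinases GSK3B (0.30) and CSNK1A1 (0.20), the ubiquitin ligase subunit BTRC (0.32) and TNKS2 (0.54), a poly-ADP-ribosyltransferase that marks AXIN for degradation. AXIN2 alone fell (8.33%, beside 21.3%), and the median of the 12 was 0.22. BTRC and TNKS2 passed in each of 19 alternatives, whereas APC, GSK3B and CSNK1A1 lost their calls in 13, 11 and 13 of them. The number that rose was 2 with equal totals, upper quartile scaling, the replicate block and eBayes without a trend and without si-CTRL replicate 3 or si-NEK2 replicate 2, 3 with quantile normalization and without si-NEK2 replicate 1 or 3, and 7 without si-CTRL replicate 1. With equal totals and upper quartile scaling the median was 0.090 and 0.15.

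CTNNB1 (GSHG0020726, chromosome 3 from 41236401 to 41281939), which encodes beta-catenin, rose. It had 17510, 21046 and 20957 normalized counts in si-CTRL and 30063, 31457 and 31751 in si-NEK2. Every si-NEK2 library was well above every si-CTRL library, of which replicate 1 was the lowest. The mean went from 19838 ± 2016.4 to 31091 ± 901 (SD, n = 3 each), with a log2 fold change of 0.65 (SE 0.08, 95% interval 0.47 to 0.84, adjusted p = 0.000354, limma). The 1.57-fold change lay close to the threshold of 1.5 and fell short of it with equal totals (log2 fold change 0.52), with quantile normalization (0.52) and without si-CTRL replicate 1 (0.57). These are levels of the transcript, and the amount of beta-catenin protein, which the pathway controls, was not measured in these files.

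LEF1 (GSHG0023463, chromosome 4 from 108968701 to 109090112) fell most among the members. It had 765, 521 and 488 normalized counts in si-CTRL and 293, 300 and 298 in si-NEK2. The si-NEK2 libraries were nearly equal and lay below all controls, of which replicate 1 was the highest. The mean went from 591 ± 151 to 297 ± 3.60 (SD, n = 3 each), so that 50.2% of the control level remained. The log2 fold change was -0.96 (SE 0.16, 95% interval -1.33 to -0.59, adjusted p = 0.00163, limma), and it was -0.76 without si-CTRL replicate 1. LEF1 counted as regulated under each of the 19 alternatives. The antisense gene LEF1-AS1 overlaps it with a mean of 4.56 normalized counts.

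TCF7L2 (GSHG0003692, chromosome 10 from 114710006 to 114927437), the other DNA-binding partner among the members, had 1017, 590 and 554 normalized counts in si-CTRL and 705, 717 and 785 in si-NEK2. The si-NEK2 libraries lay above si-CTRL replicates 2 and 3 and below replicate 1. TCF7L2 had a log2 fold change of 0.084 (SE 0.21, 95% interval -0.38 to 0.55, adjusted p = 0.769, limma). Without si-CTRL replicate 1 it was 0.36 and passed the test (adjusted p = 0.00616). With equal totals it was -0.044, while the sign also turned without si-CTRL replicate 2 (-0.032) or 3 (-0.076). The ratio of LEF1 to TCF7L2 was 0.752, 0.883 and 0.880 in si-CTRL and 0.416, 0.419 and 0.379 in si-NEK2. Its mean went from 0.838 ± 0.075 to 0.405 ± 0.022 (SD, n = 3 each) without overlap, a log2 difference of -1.05 (exact two-sided permutation p = 0.1, the smallest possible).

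**Figure D3:**
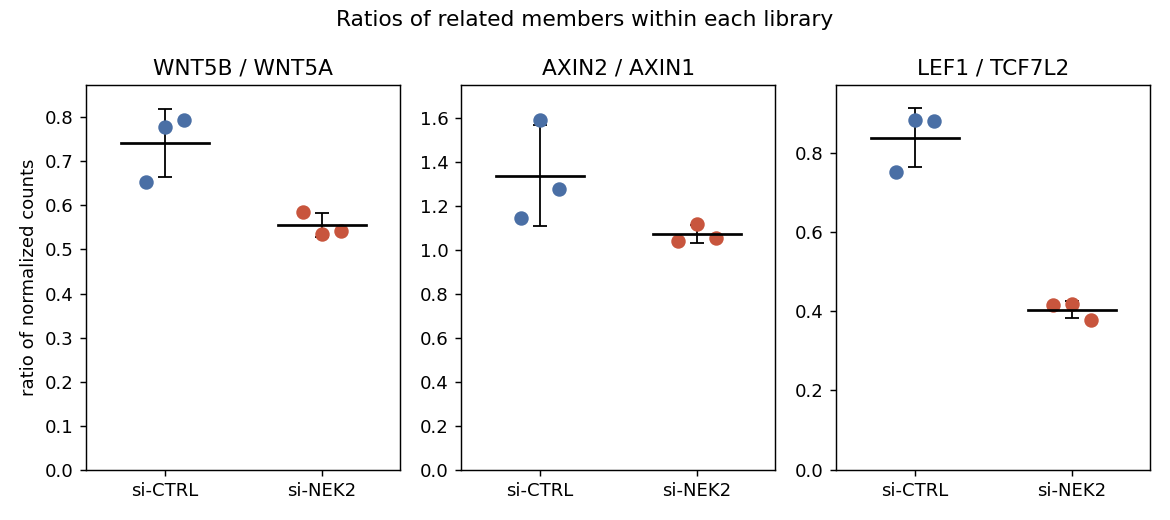
Ratios of normalized counts (vertical axes, each from 0) of WNT5B to WNT5A, AXIN2 to AXIN1 and LEF1 to TCF7L2 within each library, with the mean (bar) and SD (whiskers) of the 3 si-CTRL (blue) and 3 si-NEK2 (red) libraries. Each ratio is lower in every si-NEK2 library, and the ratio of LEF1 to TCF7L2 differs most (0.838 against 0.405).

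The list of beta-catenin and its nuclear partners, CTNNB1 itself included, held 15 tested genes. Of these, 2 were regulated upwards, CTNNB1 and TLE4 (13.3%, beside 8.23% of all genes tested), and 4 downwards (26.7%, beside 14.3%). Without si-CTRL replicate 1 these numbers were 1 and 2, and 0 were regulated upwards with equal totals and with quantile normalization. TCF7, a further TCF/LEF factor, fell from 416 to 233 normalized counts (log2 fold change -0.80, SE 0.19, adjusted p = 0.0102, limma), and TCF7L1 had a log2 fold change of -0.19 that did not pass the test. The co-activator BCL9L fell from 3994 to 2192 (log2 fold change -0.84) and the co-repressor TLE3 from 1603 to 1047 (log2 fold change -0.60), whereas the co-repressor TLE4 rose from 6502 to 10507 (log2 fold change 0.69). For TCF7, BCL9L and TLE3, si-CTRL replicate 1 was the highest control. Over 19 alternatives the smallest log2 fold changes of TCF7 and TLE3 were -0.56 and -0.43, below a fold change of 1.5. That of BCL9L was -0.65.

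Among 14 tested genes that are commonly read as direct TCF targets, 0 rose and 6 fell by the adjusted p in limma, edgeR and DESeq2 alike, 0 had an unadjusted p of at most 0.05 upwards in any of these tools, and 5 were regulated downwards. The 6 are 42.9% of the list, beside 21.3% of all genes tested, and the 5 are 35.7%, beside 14.3%. For the 0, the share of all genes tested was 21.8% higher by the adjusted p and 8.23% regulated upwards. With quantile normalization, and without si-CTRL replicate 3 or si-NEK2 replicate 1, 1 had an unadjusted p of at most 0.05 upwards in limma. The number that fell was 5 without si-NEK2 replicate 2 or 3 and 7 with equal totals. The number regulated downwards was 4 without si-CTRL replicate 1, and 6 with equal totals and without si-NEK2 replicate 1. AXIN2, whose row is uncertain, is among the 6 that fell and is also on the list of the destruction complex. LEF1 and TCF7 are among the 6 as well and are also on the list of nuclear partners. The shares of these lists are therefore not separate observations. Of the others that fell, CCND1, the cyclin of the G1 phase, went from 3146 to 1399 normalized counts (log2 fold change -1.16, SE 0.10, adjusted p = 6.08e-05, limma). The transcription factor gene MYC fell from 5903 to 3232 (log2 fold change -0.84) and TNFRSF19 from 297 to 171 (log2 fold change -0.80). The median of the list was -0.39. NKD1, NKD2, RNF43, ZNRF3, SP5, NOTUM and APCDD1 did not pass the test, with log2 fold changes from -0.49 to 0.31 and group means between 15.0 and 96.8 normalized counts for all of them but ZNRF3. The member DKK1 is also on this list and did not pass, with a log2 fold change of 0.12. Its means of 45424 and 49179 normalized counts in si-CTRL and si-NEK2 were the highest of the list. CCND1 and MYC are under the control of many other pathways.

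In the cytoplasm, 8 Dishevelled and casein kinase genes were tested. CSNK1G3, a casein kinase that phosphorylates LRP6, fell from 2497 to 705 normalized counts (log2 fold change -1.82, SE 0.09, adjusted p = 4.58e-06, limma), the largest decrease among tested genes of the lists. A row shared by DVL1, a Dishevelled adaptor, and the microRNA gene MIR6808 fell with a log2 fold change of -0.42, a call that was lost without si-CTRL replicate 3 or si-NEK2 replicate 3, whereas DVL2 and DVL3 (0.11 and 0.23) did not pass the test. The row of CSNK1G1 is shared with KIAA0101, and its log2 fold change of 0.63 cannot be assigned to either gene. Of 15 tested genes of planar cell polarity and other signalling outside the beta-catenin branch, 3 were regulated upwards (20.0%, beside 8.23% of all genes tested) and 2 downwards (13.3%, beside 14.3%). The number downwards was 1 with quantile normalization, with a pseudocount of 5 and without si-CTRL replicate 1 or 2 or si-NEK2 replicate 2, and the number upwards was 2 with upper quartile scaling, with equal totals and without si-CTRL replicate 3 or si-NEK2 replicate 3. DAAM1, a formin that links Dishevelled to actin, rose from 731 to 2275 (log2 fold change 1.64, SE 0.09, adjusted p = 8.06e-06, limma), PRICKLE1 from 582 to 1108 (log2 fold change 0.92) and CELSR2 from 200.3 to 308 (log2 fold change 0.63), the last with its call lost without si-NEK2 replicate 2. VANGL2 fell from 74.2 to 49.0 (log2 fold change -0.60), a call that was lost in 9 of 19 alternatives, 5 left-out libraries among them (adjusted p up to 0.138, limma), and PTK7, described above, fell as well.

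**Figure D4:**
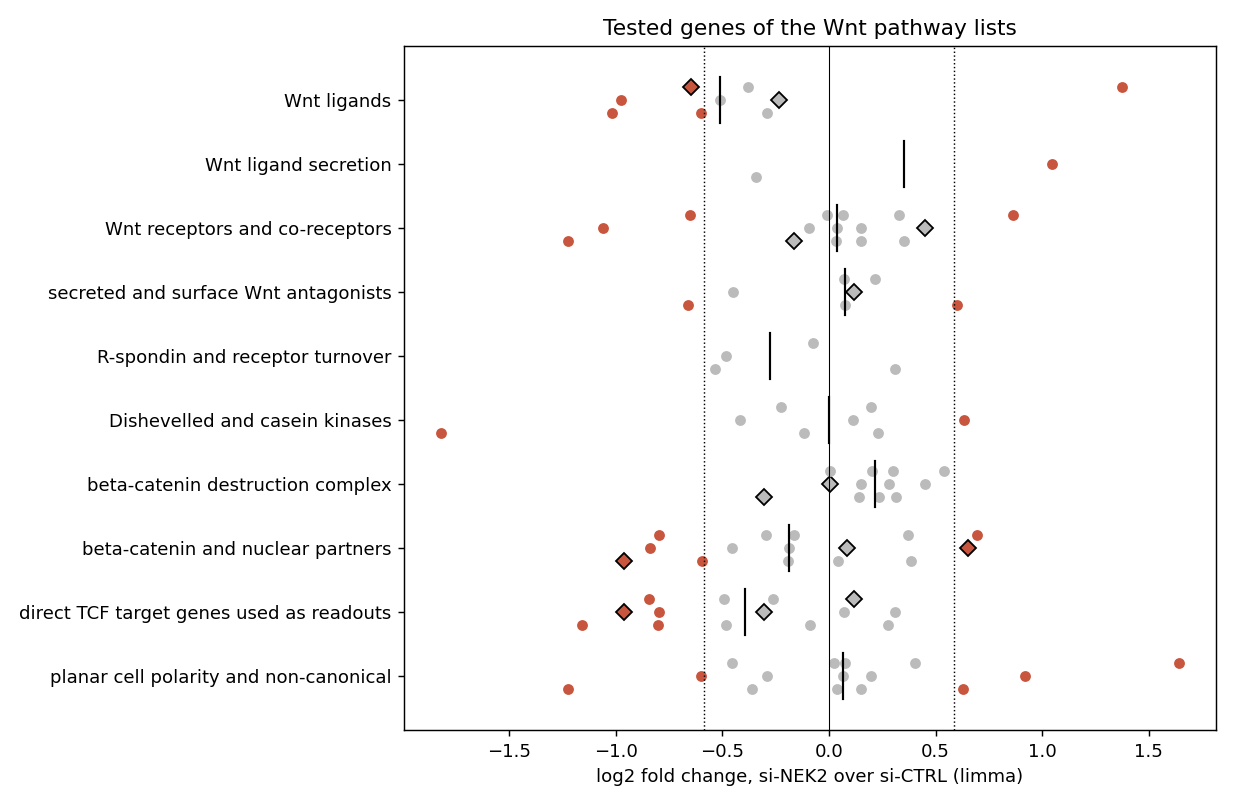
Log2 fold change in si-NEK2 over si-CTRL from limma (horizontal axis) of each tested gene of the Wnt lists, by role. Diamonds are members, red marks regulated genes, black bars are medians of the lists and dotted lines mark a fold change of 1.5. No tested TCF target is regulated upwards, and CSNK1G3 (-1.82) and DAAM1 (1.64) are the extremes.

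Over all Wnt lists together, 90 of 114 listed genes were tested, 10 were regulated upwards (11.1%, beside 8.23% of all genes tested) and 17 downwards (18.9%, beside 14.3%). By the adjusted p 21 rose (23.3%, beside 21.8%) and 25 fell (27.8%, beside 21.3%), and the median was 0.0033. Without the members, 80 of 104 were tested, with 9 regulated upwards and 15 downwards.

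Levels of different genes were compared per kb of exon in the GENCODE annotation, which is not the length the authors counted over. In si-CTRL, DKK1 was highest at 25377 normalized counts per kb (range 23569 to 28092), followed by FZD2 at 2615 and CTNNB1 at 2525, whose ranges overlap. LRP6 followed at 652 and was apart from its neighbours. WNT5B (290), AXIN2 (263), AXIN1 (257), TCF7L2 (166), WNT5A (158) and LEF1 (141) formed a chain in which each overlapped the next. In si-NEK2 CTNNB1, at 3957 per kb, lay above FZD2 at 2332 without overlap. AXIN1 (253, range 238 to 261) lay above AXIN2 (213, range 209.5 to 214) and WNT5B (184, range 160.3 to 212), whose ranges overlap. LEF1 was again the lowest at 70.8, apart from WNT5A at 134. The level of FZD2 is uncertain, since its row is 1.81 times as long as the annotated gene, and so is that of AXIN2.

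For each member, the gene with the most similar profile over the 6 libraries was sought among 12100 genes with a single symbol, by the root mean square difference of log2 values centred on their mean. This is a description of 6 libraries. CTNNB1 was nearest to TM9SF3 (0.0183), which had means of 13797 and 21628 normalized counts. LRP6 was nearest to PTPRB (0.0193), AXIN2 to EHD4 (0.0219), DKK1 to OMA1 (0.0224), FZD2 to MROH1 (0.0275) and WNT5A to ZDHHC23 (0.0309). The distances were larger for AXIN1 and ING5 (0.0432), LEF1 and CCDC15 (0.0483), TCF7L2 and BAG4 (0.0558) and WNT5B and SLC22A31 (0.0628). CCDC15, ING5 and BAG4 were also highest among the controls in si-CTRL replicate 1, with 2092, 1151 and 1137 normalized counts.

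**Figure D5:**
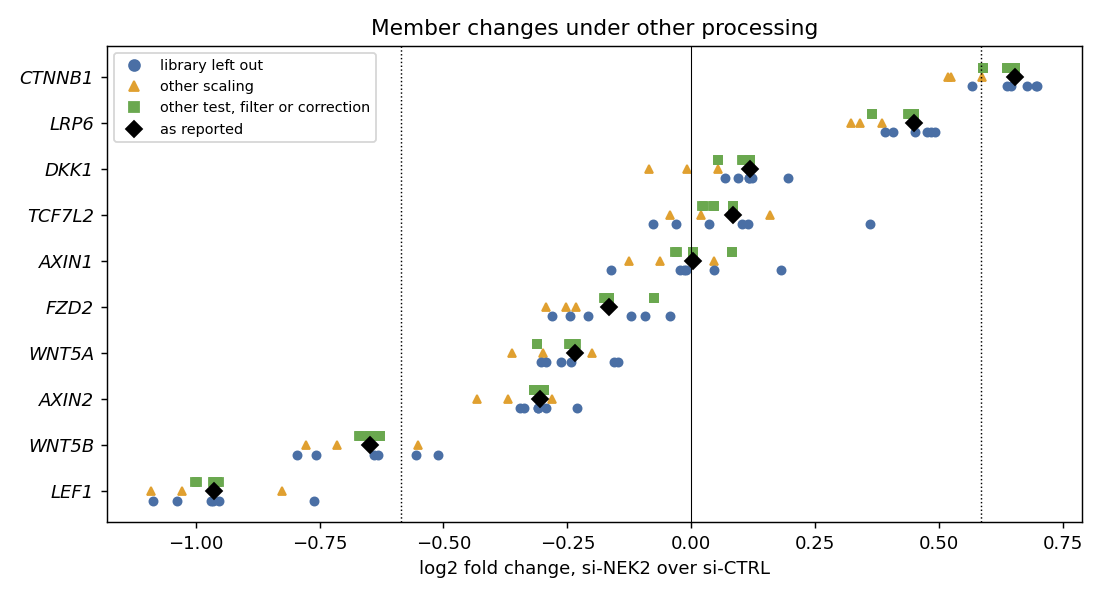
Log2 fold change of each member (horizontal axis) as reported (black diamonds) and under 19 alternatives, by kind, with dotted lines at a fold change of 1.5. LEF1 stays beyond the lower line in each, from -1.09 to -0.76, whereas AXIN1, TCF7L2 and DKK1 fall on both sides of 0.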

How the data were processed

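Gene expression in MDA-MB-231 cells was measured from polyA RNA sequenced in 3 si-CTRL and 3 si-NEK2 libraries, grouped by the sample records. The authors deposited 1 signal value per gene and library, a normalized count, that is the reads on a gene after division by a size factor for each library from DESeq2, with FAST DB gene identifiers and hg19 coordinates, replicates not pooled. The submitters' processing notes name STAR 2.4.0, SAMtools, Picard, FastQC and DESeq2. The handling of strand and of reads that fit several genes is not given in the sources used here. Deposited values were whole multiples of 1 read (tolerance 0.01) in 100% of cases, so that the read counts could be recovered.

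The members and the gene lists were chosen with earlier results of these data known. Genes that averaged 10 normalized counts or more (18717 of 74852) were fitted with limma 3.58.1 in R 4.3.3 (lmFit, and eBayes with an intensity trend) on log2(value + 1), a scale on which changes of low genes are understated, and p-values were adjusted by Benjamini and Hochberg over all of them. Genes beyond the members were named from the lists where p was at most 0.05, the fold change at least 1.5, the adjusted p at most 0.05 and the groups did not overlap, up to 6 per list by fold change. Others named with values (LRP5, WNT7B, WLS, genes of the destruction complex, receptors of WNT5A, the Dishevelled genes, TCF7L1 and the TCF targets that did not pass) were chosen after their values were seen. On simulated data of 18717 genes for this comparison, limma recovered 79.1% of 67 genes changed 1.5-fold and 95.7% of 69 genes changed 2-fold. The changed genes were few and were drawn only from genes well above the filter. These shares therefore do not hold for genes near the filter. In the data many more genes passed the adjusted p (21.8% higher and 21.3% lower). Ratios were tested with exact permutation tests (scipy 1.17.1).

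Results were recomputed with pseudocounts of 0.1 and 5, without the filter on low genes and with a minimum mean of 50. The scaling was changed to upper quartile, to equal totals and to quantile normalization, and eBayes was run with no trend. A block for the replicate number and each library left out in turn were tried, as were the adjusted p in place of the p-value and a 2-fold threshold. Recovered reads were tested with edgeR 4.0.16 (TMM, quasi-likelihood) and with DESeq2 1.42.0. A correction for GC content, with and without the replicate block, was added after the data were seen. Exon lengths, GC content and gene spans came from GENCODE (GRCh38), matched by symbol, and promoters from RefSeq.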

Additional observations from a re-analysis of the deposited data

How the results depend on the processing

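Of 190 member values under alternatives (19 for each of 10 members), 169 kept direction and call, 3 lost the call (AXIN2), 5 gained it (WNT5A under 3 alternatives, TCF7L2 and FZD2 under 1 each) and 13 changed sign. AXIN1 turned to -0.063 with upper quartile scaling, -0.13 with equal totals, -0.030 with edgeR, -0.032 with DESeq2 and to -0.16, -0.012, -0.022 and -0.015 without si-CTRL replicate 2 or 3 or si-NEK2 replicate 1 or 3, against 0.18 without si-CTRL replicate 1. TCF7L2 turned to -0.044 with equal totals and to -0.032 and -0.076 without si-CTRL replicate 2 or 3, against 0.36 without si-CTRL replicate 1, and DKK1 to -0.0095 with equal totals and -0.086 with quantile normalization. The cause was not tested. Of 3 regulated members, 1 (LEF1) was left with quantile normalization, 2 with equal totals, 2 to 3 with a library left out, and 0 at a fold change of at least 2, which also left 8 of 27 regulated Wnt list genes and 1637 of 4213 regulated genes. With a library left out, the Wnt lists held 21 to 28 and all tested genes 3922 to 4413 regulated genes, and the change of NEK2 was -3.42 to -3.19. The log2 differences of ratios were -0.50 to -0.36 for WNT5B to WNT5A, -1.12 to -1.0004 for LEF1 to TCF7L2 and -0.41 to -0.18 for AXIN2 to AXIN1, the last without si-CTRL replicate 2. CTTTGAT in place of CTTTGA left 0 members with a match. Libraries of the same number deviated from their group means with correlations of -0.09, 0.05 and -0.15, so that no shared deviation by number was seen. Deviations from means of 3 libraries cannot tell whether libraries of the same number were handled together. With the replicate block 3 members, 27 Wnt list genes and 4084 genes were regulated and no member changed its call. With the correction for GC content 2932 of 13201 genes and 3 members were regulated. Depth limited genes listed near 0, where up to 3 reads of a library cannot be told from none. Some low genes that were tested also had large standard errors in limma, such as SP5 (0.32) and APCDD1 (0.34).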

Other observations

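Several further genes of the Wnt lists passed the adjusted p in limma with a fold change below 1.5, and they are given here as values chosen after they were seen. In the nuclear lists PYGO2, which reads histone marks together with BCL9, rose from a mean of 4102 to 5354 normalized counts (log2 fold change 0.38), and CHD8, a chromatin remodeller that binds beta-catenin, rose from 11570 to 14976 (log2 fold change 0.37). BCL9, the relative of BCL9L, fell from 902 to 649 (log2 fold change -0.45), a call lost in 7 of 19 alternatives. Among planar cell polarity genes, VANGL1 rose from 2071 to 2725 (log2 fold change 0.40), in the opposite direction to VANGL2 and with its call lost in 6 of 19 alternatives, and CELSR1 fell from 3729 to 2723 (log2 fold change -0.45), in the opposite direction to CELSR2. INVS, the ciliary protein inversin, fell from 1585 to 1298 (log2 fold change -0.29). DKK3, a relative of DKK1, fell from 7775 to 5691 (log2 fold change -0.45).

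The TCF7L2 row overlaps 10 other rows with reads. Among them, GSHG0003698 and GSHG0003697 averaged 27.9 and 12.7 normalized counts, and their changes are not described here. The overlapping row with the highest mean, which has no symbol (GSHG0003699, chromosome 10 from 114922521 to 114924356, hg19), held 25 to 64 reads per library. This row had 31.2, 27.1 and 36.1 normalized counts in si-CTRL and 46.6, 57.8 and 46.9 in si-NEK2. It rose with a log2 fold change of 0.67 (SE 0.22, adjusted p = 0.0351, limma), whereas the TCF7L2 row itself did not pass the test, and si-CTRL replicate 1 was not the highest control in this row.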
